A study of Mus musculus with 6 samples.

Results

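The proteasome genes of mouse embryonic stem (mES) cells were examined, defined by symbol as Psm, then a letter from a to g, then a number. This rule took 49 of the 16668 symbols in the deposited lists. Of these, 46 averaged 0.5 RPKM or more (reads scaled to the exon length of the gene and to the depth of the library) and were tested, while *Psmb9*, *Psmb11* and *Psme2* are described by their values. The rule also took *Psmc3ip*, a meiotic recombination factor that is no subunit. It is kept in the sums, counts and medians of the members. *Psmb8*, an immunoproteasome gene that the rule names, was not among the listed symbols, and 0 symbols in the lists were at 0 in all 6 libraries.

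The libraries came from E14 mES cells of strain 129/Ola at passage 3 to 5, grown without feeder cells in 2i+LIF, a medium with inhibitors of MEK and GSK3 and with leukemia inhibitory factor. The labels name 3 groups of 2 libraries, which are control (wild type cells, given control siRNA according to the methods of the study), Ring1B-KD (siRNA against Ring1B, which is the product of *Rnf2* and attaches ubiquitin to histone H2A) and Dzip3-KD (siRNA against Dzip3, which can do the same). In the transfection protocol of the study, cells were collected 72 h after transfection, and siRNA lowers a transcript for a time without removing its gene. The recovered libraries held 3015349 to 3583612 mapped reads, of which 3966 to 5476 lay on the proteasome symbols.

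The name of each deposited file carries a number from 1 to 6 and a condition word, and the word differed from the label for 4 libraries. Control 1 and control 2 are files 1 and 2 with the words control and Ring1BKD. Ring1B-KD 1 and Ring1B-KD 2 are files 3 and 4 with the words Dzip3KD and control. Dzip3-KD 1 and Dzip3-KD 2 are files 5 and 6 with the words Ring1BKD and Dzip3KD. *Rnf2* was at 30.6, 20.4, 26.8, 28.8, 19.4 and 28.2 RPKM in files 1 to 6, and its lowest values were in the libraries whose file word is Ring1BKD. *Dzip3* was at 2.24, 2.68, 1.18, 1.89, 1.70 and 1.31 RPKM, lowest where the file word is Dzip3KD. Group names below therefore refer to the libraries as labelled and do not state that a knockdown took place in them, and values of 6 libraries are always given in the order of files 1 to 6. The labels and the methods do not say what the numbers stand for. Files 1 to 3 hold both control libraries and Ring1B-KD 1, so the labels Dzip3-KD and control cannot be told apart from the file numbers. The 6 ES cell markers (*Pou5f1*, *Sox2*, *Nanog*, *Klf4*, *Zfp42* and *Esrrb*) summed to 939 to 1246 RPKM, the 3 listed of 5 fibroblast markers to 1.18 to 3.10 RPKM, and the 2 listed of 5 immune markers to 0.203 to 1.90 RPKM, with *Ptprc*, *Lyz2* and *Tyrobp* not listed.

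The proteasome degrades proteins that carry ubiquitin chains. Its 20S core is a barrel of outer alpha rings and inner beta rings, and the catalytic sites lie on beta subunits inside. The 19S regulator caps the core, binds the ubiquitin chain, removes it, and unfolds and feeds in the protein with a ring of ATPases. In cells exposed to interferon, the catalytic subunits encoded by *Psmb5*, *Psmb6* and *Psmb7* can be replaced by those of *Psmb8*, *Psmb9* and *Psmb10*, which changes the peptides made for antigen presentation.

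All constitutive subunits were expressed. The 14 genes of the constitutive 20S core summed to 437, 397, 388, 366, 330 and 374 RPKM, and the 17 genes of the 19S regulator that the rule took summed to 501, 455, 511, 397, 356 and 364 RPKM. Subunits of the 19S with other symbols are not in this sum or in the ratios below. *Shfm1* is such a subunit, at 109, 81.3, 121, 88.7, 83.5 and 111 RPKM. All 49 symbols together held 0.643% to 0.793% of the summed RPKM of a library. Within the core, single genes differed far more than libraries did. Among the 7 alpha genes the mean over 6 libraries ranged from 2.42 RPKM for *Psma3* to 42.5 RPKM for *Psma6*. *Psma6* was at 52.9, 47.1, 31.8, 45.2, 36.5 and 41.7 RPKM. *Psma3* was at 3.74, 1.64, 2.50, 2.13, 1.72 and 2.75 RPKM, on 4 to 8 reads per library. Subunits that stand in the same ring in equal number were thus listed at unequal levels, in every library.

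Among the 4 beta genes without a catalytic site, *Psmb2* was highest, at 63.0, 56.4, 66.5, 56.4, 53.8 and 60.3 RPKM. *Psmb3* was lowest, at 13.2, 13.6, 10.1, 10.3, 5.03 and 8.40 RPKM. Of the 3 catalytic genes, *Psmb6* (caspase-like site) was highest, at 35.2, 43.9, 48.9, 30.1, 35.8 and 38.5 RPKM. *Psmb5*, the chymotrypsin-like subunit that proteasome inhibitors bind most strongly, was between the other two, with libraries close together. Its values were 17.9, 16.4, 18.4, 20.5, 17.2 and 20.8 RPKM. *Psmb7* (trypsin-like site) was at 21.9, 14.1, 15.6, 13.1, 14.2 and 15.8 RPKM, with control 1 above the rest.

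**Figure D1:**
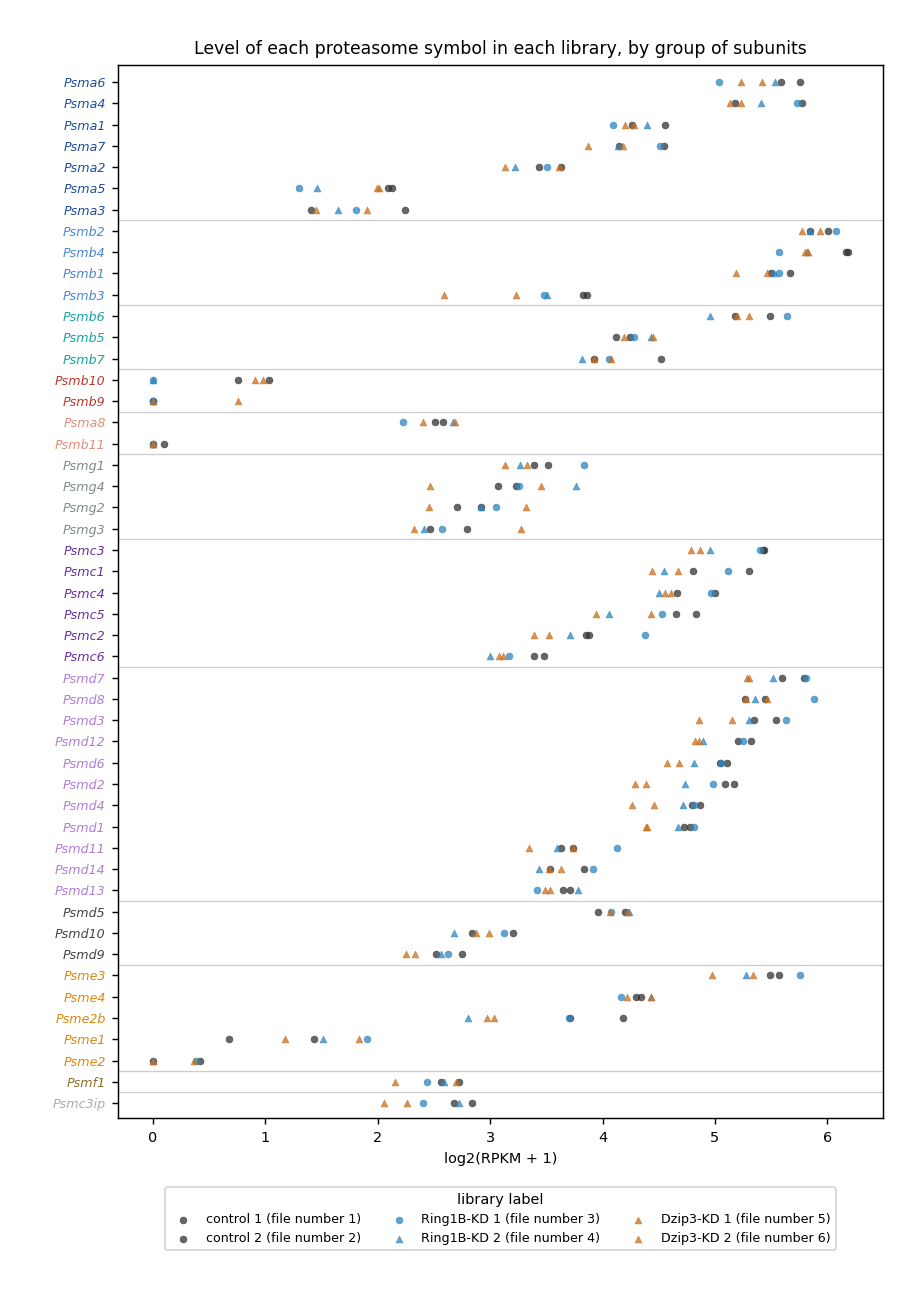
Level of each of the 49 symbols on a log2(RPKM + 1) axis, 1 point per library, with colour for the label and circles for files 1 to 3 and triangles for files 4 to 6. Immunoproteasome genes sit near 0 while *Psmb5*, *Psmb6* and *Psmb7* have means of 15.8 to 38.7 RPKM, and in the rows of the 19S ATPases the triangles lie to the left of the circles.

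In the 19S regulator the 6 ATPases ranged from a mean of 8.29 RPKM (*Psmc6*) to 35.0 RPKM (*Psmc3*), and the 11 other subunits from 11.1 RPKM (*Psmd13*) to 46.4 RPKM (*Psmd7*). *Psmc6* was at 10.2, 9.51, 7.96, 6.96, 7.44 and 7.67 RPKM. *Psmd7*, which pairs with the deubiquitinase subunit of the lid, was at 54.5, 47.4, 55.2, 44.8, 38.5 and 38.0 RPKM. *Psmd13*, another lid subunit, was at 12.1, 11.6, 9.67, 12.8, 10.2 and 10.5 RPKM. The first pair was lowest in files 4 to 6, and *Psmd13* was not. Of the 3 chaperones of 19S assembly, *Psmd5* was highest, at 17.4, 14.6, 15.8, 17.8, 17.7 and 15.7 RPKM. *Psmd9* was lowest, at 4.74, 5.74, 5.15, 4.90, 4.02 and 3.77 RPKM.

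The remaining members were caps, inhibitors and helpers of the core. *Psme3*, the nuclear activator PA28 gamma, was as abundant as the major subunits, at 46.5, 44.0, 53.2, 37.8, 30.4 and 39.4 RPKM. *Psme2*, the beta chain of the interferon-inducible PA28 cap, was at 0.339, 0, 0.303, 0, 0 and 0.286 RPKM, which is 1 read or 0 per library. *Psme1*, its alpha partner, was at 1.70, 0.597, 2.73, 1.86, 1.25 and 2.57 RPKM, so both genes of that cap were listed at low values. Much of the *Psme2* transcript is repeated elsewhere in the genome, and its copy *Psme2b* averaged 10.2 RPKM, so the level of *Psme2* is uncertain. The inhibitor *Psmf1* (PI31) was at 5.59, 4.91, 4.41, 5.03, 3.44 and 5.49 RPKM. The 4 chaperones of 20S assembly had means from 5.40 RPKM (*Psmg3*) to 9.76 RPKM (*Psmg1*). *Psmg1* was at 10.4, 9.47, 13.2, 8.60, 7.77 and 9.07 RPKM. *Psmg3* was at 5.93, 4.52, 4.95, 4.33, 4.01 and 8.65 RPKM, with Dzip3-KD 2 well above the others. *Psma8*, an alpha subunit known from testis, was detected in every library at 4.70, 4.99, 3.68, 5.36, 5.42 and 4.29 RPKM on 21 to 30 reads. *Psmb11*, the catalytic subunit of the thymus, had 1 read in control 2 and 0 elsewhere, where 3 reads would be 0.197 to 0.234 RPKM.

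How far a level can be read depends on repeats of the gene elsewhere in the genome, since the authors counted only reads that map to 1 place and many proteasome genes have processed copies. The share of 31-base words of the transcript that also occur elsewhere in mm9 was computed for the 49 symbols. It was 0% for 23 and at least 40% for 10, namely *Psma3* (83.1%), *Psmb3* (79.2%), *Psmb5* (78.5%), *Psma5* (67.2%), *Psme2* (66.2%), *Psma4* (61.6%), *Psme2b* (54.6%), *Psmd11* (48.0%), *Psmd2* (44.6%) and *Psmc1* (43.7%). The lowest alpha gene, the lowest constitutive beta gene and the lowest cap gene are all in this group, but *Psma4* was at 42.1 RPKM on average. Levels of these 10 genes are uncertain, and the part of the repeats in them was not tested.

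**Figure D2:**
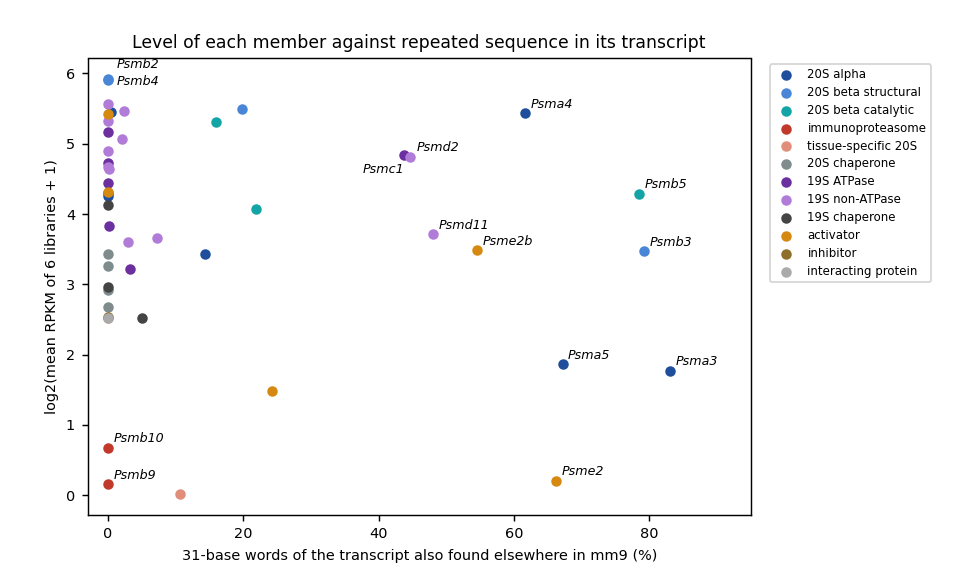
Mean level over 6 libraries, as log2(RPKM + 1), against the percentage of 31-base words of the transcript found elsewhere in mm9, 1 point per symbol, coloured by group. *Psma3* and *Psma5* combine a low level with 83.1% and 67.2% of repeated words, while *Psma4* and *Psmb5* have 61.6% and 78.5% at high levels.

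The immunoproteasome genes were at the limit of detection. *Psmb10* (chromosome 8, 108459628 to 108462292, minus strand, mm9) was at 1.04, 0.689, 0, 0, 0.964 and 0.879 RPKM, which is 4, 3, 0, 0, 4 and 4 reads. Its constitutive counterpart *Psmb7* was 26.6-fold higher over all libraries, with a 95% exact interval of 15.9 to 48.0 that covers counting error only. *Psmb9* (chromosome 17, 34318932 to 34324697, minus strand) was at 0 in 5 libraries and at 0.692 RPKM in Dzip3-KD 2, a value seen in 1 library only, so that its number of reads is not fixed. Its counterpart *Psmb6* averaged 38.7 RPKM. Neither gene has words repeated elsewhere in mm9.

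The mean log2(RPKM + 1) of *Psmb9* and *Psmb10* minus that of *Psmb5*, *Psmb6* and *Psmb7* was -4.13, -4.13, -4.66, -4.40, -3.95 and -3.77. The constitutive set was therefore far higher in every library, with the widest gaps in the libraries labelled Ring1B-KD. Those are the libraries without a *Psmb10* read. The change of *Psmb10* on the log2(RPKM + 1) scale was -0.89 for Ring1B-KD against control (SE 0.24, limma adjusted p 0.902) and 0.94 for Dzip3-KD against Ring1B-KD (SE 0.24, limma adjusted p 0.864). In Ring1B-KD 1 and 2 the floors of 3 reads are 0.70 and 0.715 RPKM. They lie above the 0.689 RPKM of control 2 and below the values of control 1 and both Dzip3-KD libraries. The difference rests on 0 reads against 3 or 4 reads per library and did not pass the threshold.

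The comparison by file number showed the clearest shift in these genes. The 49 symbols summed to 1053 ± 50.5 RPKM (SD, n = 3) in files 1 to 3 (labels control 1, control 2 and Ring1B-KD 1) and 865 ± 45.2 RPKM (SD, n = 3) in files 4 to 6 (labels Ring1B-KD 2 and both of Dzip3-KD). The single sums were 1100, 999.6, 1059, 905, 816 and 874 RPKM, and the sets did not overlap. Less RNA per cell and fewer cells that express a gene cannot be told apart in such bulk values. Of 46 tested members, 3 passed the threshold of 0.05 on the limma adjusted p (6.52%), against 5.53% of all genes tested, and all 3 were lower in files 4 to 6, against 2.44% of all genes called lower and 3.09% called higher. The share called was thus near the background.

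*Psme2b*, a copy of the PA28 beta gene, fell from 17.2, 12.1 and 12.0 RPKM in files 1 to 3 to 5.98, 7.21 and 6.83 RPKM in files 4 to 6. This is -0.93 on the log2 scale (SE 0.16, limma adjusted p 0.0151). The gene lies on chromosome 11 from 48758856 to 48759692 (minus strand, mm9), GENCODE names it as a pseudogene, and its reads cannot be told apart fully from those of *Psme2*. *Psmc3*, an ATPase of the 19S base with no repeated words (chromosome 2, 90894166 to 90906526, plus strand), was at 42.2, 41.9, 41.3, 30.0, 28.1 and 26.6 RPKM. The values of each set lay close together with a gap between the sets, and the difference on the log2 scale was -0.55 (SE 0.11, limma adjusted p 0.0215). *Psmd2*, a scaffold of the base that binds ubiquitin shuttle proteins (chromosome 16, 20651725 to 20663487, plus strand), was at 35.0, 33.1, 30.7, 25.6, 19.9 and 18.6 RPKM. It fell by 0.61 on the log2 scale (SE 0.14, limma adjusted p 0.0356). No member was called without the library Ring1B-KD 2 or without Dzip3-KD 2, and 1 was called without control 1 or without Dzip3-KD 1.

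Other members lay below these in rank. *Psmc5* was at 27.5, 24.2, 22.0, 15.6, 14.4 and 20.5 RPKM, or -0.53 on the log2 scale (SE 0.15, limma adjusted p 0.0788). *Psmc1* was at 38.5, 27.0, 33.6, 22.3, 24.4 and 20.8 RPKM, or -0.52 on the log2 scale (SE 0.15, limma adjusted p 0.0710). Both are base ATPases whose sets did not overlap, and neither passed the threshold. At an unadjusted p under 0.05, 17 members were lower in files 4 to 6 (37.0%, against 12.2% of all genes) and 0 were higher (against 11%). Proteasome genes are well expressed, and among genes averaging 5 RPKM or more 17 of 38 members were lower at that p, against 16.7% of all such genes. All values of files 4 to 6 lay below all of files 1 to 3 for 16 members (34.8%, against 15.5% of all genes), and no member had the opposite order (against 13.1%). Among genes averaging 5 RPKM or more, 16 of 38 members did so, against 20.9% of all such genes. The change was below 0 for 36 of 46 members, against 55.3% of all genes. The median log2 change was -0.24 for the members and -0.04 for all genes tested.

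The members that did not overlap were mostly of the 19S regulator. They were all 6 ATPases (*Psmc1* to *Psmc6*), 7 of the 11 other 19S subunits (*Psmd1*, *Psmd2*, *Psmd3*, *Psmd4*, *Psmd6*, *Psmd7* and *Psmd12*), the caps *Psme2b* and *Psme3*, and the 20S chaperone *Psmg1*. None of the 14 constitutive 20S genes was among them. Of all genes tested, 15.5% were lower without overlap, and 20.9% of those averaging 5 RPKM or more. The 17 genes of the 19S that the rule took summed to 489 ± 29.6 RPKM (SD, n = 3) in files 1 to 3 and 372 ± 21.5 RPKM (SD, n = 3) in files 4 to 6, or 23.9% lower. Of these 17, 12 had an unadjusted p under 0.05, and all 12 were lower. The summed 20S level was 407 ± 25.7 RPKM (SD, n = 3) and 357 ± 23.2 RPKM (SD, n = 3), or 12.4% lower, with 2 of 14 such genes. Of all genes tested, 12.2% were lower at that p, and 16.7% of those averaging 5 RPKM or more. The 19S and 20S medians of the log2 change were -0.37 and -0.17. These are descriptions of lists, and the difference between them was not tested.

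The catalytic subunits did not pass the threshold by file number. *Psmb5*, *Psmb6* and *Psmb7* summed to 77.4 ± 4.73 RPKM (SD, n = 3) in files 1 to 3 and 68.7 ± 5.89 RPKM (SD, n = 3) in files 4 to 6. The sets overlapped, since Dzip3-KD 2 with 75.2 RPKM was above control 2 with 74.4 RPKM. The log2 change was 0.14 for *Psmb5* (SE 0.12, limma adjusted p 0.543). For *Psmb6* it was -0.28 (SE 0.15, limma adjusted p 0.296), and for *Psmb7* -0.22 (SE 0.17, limma adjusted p 0.467). *Psmb10* had 0 reads in 1 library of each set, and its change was 0.03 (SE 0.33, limma adjusted p 0.965).

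Within the 19S regulator the ATPases had sums of 163, 141, 155, 109, 107 and 109 RPKM. Their sum was 153 ± 11.2 RPKM (SD, n = 3) against 108 ± 0.822 RPKM (SD, n = 3), and their median log2 change was -0.51. These SDs are of the sum. In files 4 to 6 the SD of single ATPases ranged from 0.360 RPKM (*Psmc6*) to 3.25 RPKM (*Psmc5*). The ratio of the 19S to the 20S sum was 1.15, 1.15, 1.32, 1.08, 1.08 and 0.973, so it was above every value of files 4 to 6 in each of files 1 to 3. Leaving out a library gave 13 to 15 non-overlapping 19S genes of 17 and 0 to 4 such 20S genes of 14, against 18.9% to 22.6% of all genes. The 20S count was 4 without control 2 and 4 without Ring1B-KD 1. With scaling to the 75th percentile the counts were 10 and 1 (against 13% of all genes), and with quantile normalization 11 and 0 (against 14.6%). Restricted to genes with under 10% of repeated words, the counts were 11 of 14 for the 19S and 0 of 5 for the 20S. The share of all genes was not computed under this restriction, and 5 genes of the 20S are too few to set beside the 19S.

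**Figure D3:**
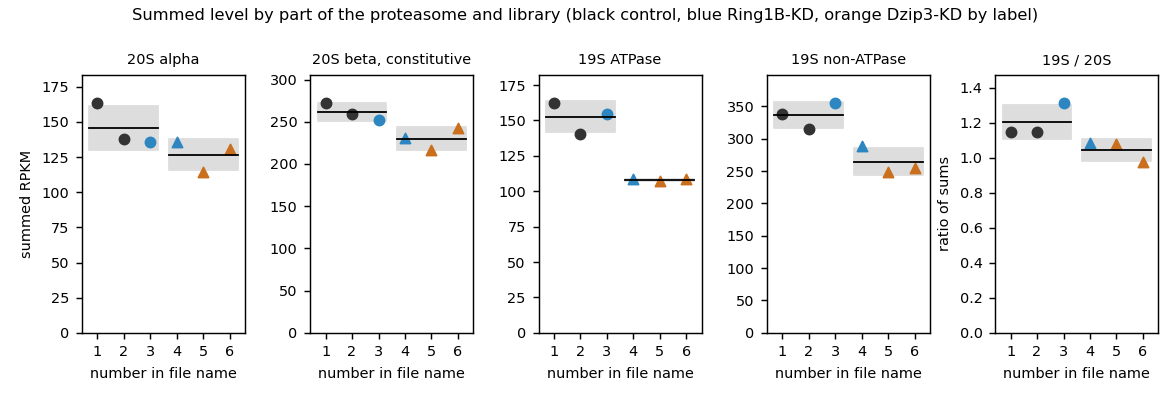
Summed RPKM of 4 groups of subunits and the ratio of the 19S to the 20S sum, by number in the file name, with colour for the label, a line for the mean of each set of 3 files and a grey band for its SD. The 19S ATPases summed to 153 ± 11.2 RPKM in files 1 to 3 and 108 ± 0.822 RPKM in files 4 to 6, and there Ring1B-KD 1 and Ring1B-KD 2 (blue) lie with the other libraries of their own set. For the other 19S subunits Ring1B-KD 2, at 288 RPKM, lies between control 2 at 315 RPKM and Dzip3-KD at 249 and 255 RPKM.

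**Figure D4:**
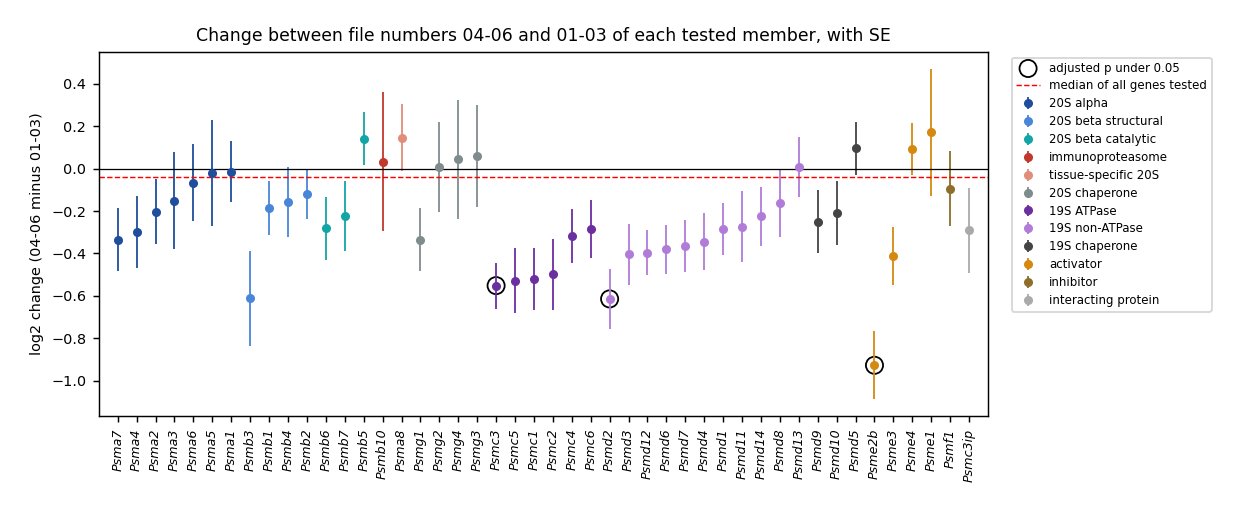
Log2 change with its SE for each of the 46 tested members between files 4 to 6 and files 1 to 3, ordered by group, with circles round the 3 genes with an adjusted p under 0.05 and a dashed line at the median of all genes tested (-0.04). *Psmc1* to *Psmc6* lie between -0.55 and -0.28, while *Psmb5* lies at 0.14.

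By label, all members summed to 1050 ± 70.9 RPKM (SD, n = 2) in control libraries. Those of Ring1B-KD reached 982 ± 109 RPKM (SD, n = 2), and the lowest sum was in Dzip3-KD, with 845 ± 40.9 RPKM (SD, n = 2). The wide spread of Ring1B-KD came from 1059 RPKM in file 3 and 905 RPKM in file 4. For the 19S sum the means were 478 ± 32.4, 454 ± 80.6 and 360 ± 5.12 RPKM (SD, n = 2 each) for control, Ring1B-KD and Dzip3-KD. For the 20S sum they were 417 ± 27.7, 377 ± 15.5 and 352 ± 30.6 RPKM (SD, n = 2 each). The study calls the 2 libraries of a group biological duplicates, and the labels do not say whether they came from separate cultures, so the p-values measure the spread between these libraries.

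For Dzip3-KD against control, 0 of 46 members passed the limma adjusted p, as did 0% of all genes, and 0 did so with limma voom on recovered reads. At an unadjusted p under 0.05, 9 members were lower (19.6%, against 6.99% of all genes) and 0 were higher (against 5.24%). The 9 include *Psmc3ip*, which is no subunit. The smallest p belonged to *Psmd2*, whose values are given above, with -0.80 on the log2 scale (SE 0.17, limma adjusted p 0.300). *Psmb3*, listed above with 5.03 and 8.40 RPKM in the libraries labelled Dzip3-KD, had a change of -0.93 (SE 0.23, limma adjusted p 0.300). *Psme2b* had a change of -0.94 (SE 0.30, limma adjusted p 0.319), which was -0.0468 (limma adjusted p 0.991) with the file number as a block. With that block *Psmd2* was at -0.54 and *Psmb3* at -0.96 (limma adjusted p 0.829 for each). For all 3 genes both Dzip3-KD values were below both control values, as for 24 of 46 members (52.2%, against 30.3% of all genes), and 0 members had the opposite order (against 20.4%). The median change of the members was -0.23, against -0.07 for all genes. With the block the median was -0.08 for the members and -0.08 for all genes. No set of files holds both labels, so this is no direct comparison of Dzip3-KD with control inside a set. The block adds Dzip3-KD against Ring1B-KD 2 to Ring1B-KD 1 against control. It takes both Ring1B-KD libraries as the same condition, although their file words are Dzip3KD and control.

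For Ring1B-KD against control, 0 of 46 members passed, as did 0% of all genes, and limma voom again gave 0. At an unadjusted p under 0.05, 4 were lower (8.70%, against 2.88% of all genes) and 0 higher (against 2.23%). After *Psmb10*, the smallest p-values belonged to *Psma5* and *Psmb4*. *Psma5*, an alpha subunit with 67.2% of repeated words, was at 3.27, 3.35, 1.46, 1.74, 3.02 and 2.98 RPKM on 6 to 14 reads, a change of -0.73 (SE 0.20, limma adjusted p 0.902). *Psmb4*, a beta subunit without a catalytic site, was at 71.6, 71.0, 46.5, 55.5, 54.8 and 55.9 RPKM, a change of -0.48 (SE 0.17, limma adjusted p 0.902). Both control libraries were above the other 4 for *Psmb4*. Both Ring1B-KD values were below both control values for 10 of 46 members (against 18.9% of all genes) and above them for 3 (against 14.9%). The median change was -0.09 for the members and -0.02 for all genes.

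For Dzip3-KD against Ring1B-KD, 0 of 46 members passed, as did 0% of all genes, and limma voom gave 0. At an unadjusted p under 0.05, 5 members were lower (10.9%, against 3.02% of all genes) and 2 higher (4.35%, against 1.61%). *Psmb10* and *Psma5* were the 2 higher ones, and *Psma5* had a change of 0.62 (SE 0.20, limma adjusted p 0.864). *Psmd2* had the smallest p among the lower ones, with a change of -0.52 (SE 0.17, limma adjusted p 0.864). The comparisons by label share libraries, so their values are not independent of each other.

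Because the label Ring1B-KD has 1 library in each set of files, comparisons inside and across the sets can be set side by side, with no replicate check for the lone library. Ring1B-KD 1 against the controls, all in files 1 to 3, gave a median log2 change of -0.01 for the members and -0.03 for all genes, with 26 of 46 members below 0 (against 53.8% of all genes). Ring1B-KD 2 against the same controls, across the sets, gave -0.18 and -0.01, with 37 of 46 below 0 (against 51.1%). Dzip3-KD against Ring1B-KD 2, all in files 4 to 6, gave -0.10 and -0.05, with 30 of 46 below 0 (against 59.3%). Dzip3-KD against Ring1B-KD 1, across the sets, gave -0.33 and -0.02, with 35 of 46 below 0 (against 52.3%). The members stood apart from all genes most in the comparisons across the sets. Single genes were not alike in this. Inside files 4 to 6, Dzip3-KD against Ring1B-KD 2 was -0.40 for *Psmd2*, -0.13 for *Psmc3* and 0.20 for *Psme2b*.

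**Figure D5:**
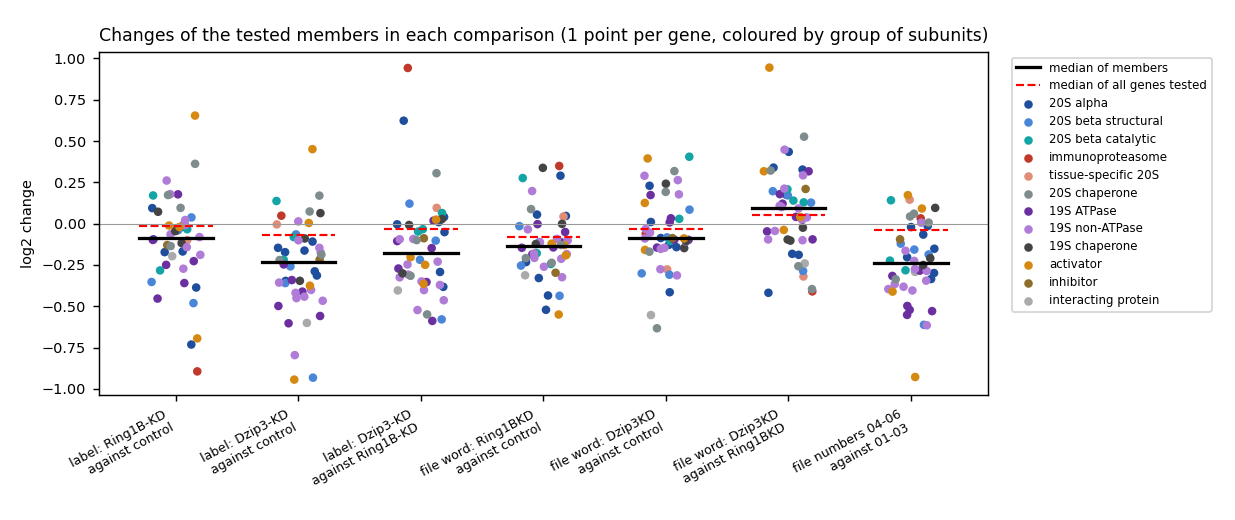
Log2 change of each of the 46 tested members in the 3 comparisons by label, the 3 by condition word in the file name and the comparison by file number, 1 point per gene with random sideways scatter. The black line is the median of the members and the dashed line that of all genes tested, and they are farthest apart by file number, at -0.24 and -0.04.

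By condition word in the file name, sums were 1003 ± 138 RPKM (SD, n = 2) where the word is control (labels control 1 and Ring1B-KD 2), 908 ± 130 RPKM (SD, n = 2) for Ring1BKD (labels control 2 and Dzip3-KD 1) and 967 ± 131 RPKM (SD, n = 2) for Dzip3KD (labels Ring1B-KD 1 and Dzip3-KD 2). Each word has 1 library in each set of files, and the spread inside a word was larger than any difference between words. In each of the 3 comparisons between words 0 of 46 members passed the limma adjusted p, as did 0% of all genes, and limma voom gave 0. With the file number as a block, 0 members passed in each, while 48, 0 and 78 of all genes passed for Ring1BKD against control, Dzip3KD against control and Dzip3KD against Ring1BKD.

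For the word Ring1BKD against control, 0 members had an unadjusted p under 0.05 in either direction, against 1.66% of all genes lower and 1.98% higher. With the file number as a block 4 were lower (*Psma4*, *Psma7*, *Psmd3* and *Psme1*, against 5.2% of all genes) and 0 higher (against 3.11%). The median was -0.14 for the members and -0.08 for all genes. Inside files 1 to 3 (control 2 against control 1 by label) the medians were -0.12 and -0.06, and inside files 4 to 6 (Dzip3-KD 1 against Ring1B-KD 2) they were -0.17 and -0.11. The smallest p belonged to *Psme1*, with a change of -0.55 (SE 0.25). *Psma3* followed with -0.52 (SE 0.26) and *Psma4*, at 53.6, 35.1, 51.9, 41.4, 34.1 and 36.7 RPKM, with -0.43 (SE 0.24). In both sets of files *Psma4* was lower where the word is Ring1BKD than where it is control.

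For the word Dzip3KD against control, 1 member had an unadjusted p under 0.05, and it was *Psmc3ip*, which is no subunit (2.17%, against 1.01% of all genes lower), while 0 were higher (against 1.23%). With the file number as a block *Psmc3ip* was lower (against 3.34% of all genes) and *Psmb6* higher (against 3.18%) at that p. *Psmc3ip* was at 6.14, 5.40, 4.27, 5.60, 3.78 and 3.16 RPKM, a change of -0.55 (SE 0.24, unadjusted limma p 0.0490). *Psmg4*, a 20S chaperone, was at 8.38, 7.37, 8.56, 12.6, 9.95 and 4.53 RPKM, a change of -0.63 (SE 0.32). *Psmb6*, listed above, had a change of 0.40 (SE 0.22). The median was -0.09 for the members and -0.03 for all genes, and that of the members turned to 0.14 without control 1 and to 0.088 without Dzip3-KD 2. Inside files 1 to 3 (Ring1B-KD 1 against control 1 by label) the medians were -0.05 and -0.06, and inside files 4 to 6 (Dzip3-KD 2 against Ring1B-KD 2) they were -0.02 and -0.00.

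For the word Dzip3KD against Ring1BKD, *Psme1* alone had an unadjusted p under 0.05 and was higher (2.17%, against 2.33% of all genes), while 0 members were lower (against 2.18%). With the file number as a block 4 were higher at that p (*Psme1*, *Psmd11*, *Psma7* and *Psme3*, against 6.43% of all genes) and 0 lower (against 3.66%). The change of *Psme1* without the block was 0.94 (SE 0.25, limma adjusted p 0.517), on 2 to 9 reads per library. *Psmd11*, at 12.4, 11.4, 16.5, 11.1, 9.13 and 12.3 RPKM, had a change of 0.45 (SE 0.22). *Psmg3* had a change of 0.53 (SE 0.28). The medians were 0.10 for the members and 0.05 for all genes, and that of the members turned to -0.05 without Dzip3-KD 1 and to -0.04 without Ring1B-KD 1.

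Other genes of the ubiquitin-proteasome pathway were collected in a list of symbols outside the rule, of which 25 were listed and tested. By file number 2 passed the limma adjusted p, both lower in files 4 to 6, against 5.53% of all genes called and 2.44% called lower. *Vcp*, the ATPase that extracts ubiquitinated proteins, was at 25.9, 28.6, 24.3, 19.9, 15.2 and 18.2 RPKM, a change of -0.54 (SE 0.13, limma adjusted p 0.0462). *Uba1*, the main ubiquitin-activating enzyme, was at 33.6, 34.9, 37.8, 26.8, 24.4 and 25.3 RPKM, a change of -0.46 (SE 0.11, limma adjusted p 0.0443). For both genes the sets of files did not overlap. At an unadjusted p under 0.05, 8 of 25 were lower and 1 higher by file number (against 12.2% and 11% of all genes), and the median change was -0.20. By label, 0 of 25 passed in any comparison. For Dzip3-KD against control 2 were lower at an unadjusted p under 0.05 (*Vcp* and *Uba1*, against 6.99% of all genes). For Ring1B-KD against control 0 were lower or higher (against 2.88% and 2.23% of all genes). The same held for Dzip3-KD against Ring1B-KD (against 3.02% and 1.61%). By word 0 passed. Of the 25, 1 (*Shfm1*, a small 19S subunit) was higher at an unadjusted p under 0.05 for Dzip3KD against Ring1BKD (against 2.33% of all genes).

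Sequence upstream of the start site was examined because 13 of 17 genes of the 19S regulator were lower without overlap in files 4 to 6 (against 15.5% of all genes). Windows of 250 bases upstream (RefSeq, GRCm38.p6) were at hand for 41 of the 49 symbols, and those of *Psma8*, *Psmb1*, *Psmb2*, *Psmb7*, *Psmc3*, *Psmd3*, *Psmd7* and *Psmg2* were not used here. The core of the antioxidant response element, TGACNNNGC on either strand, is the motif that the proteasome regulators Nfe2l1 and Nfe2l2 bind. It was in 5 of 41 windows (12.2%), against 13.8% of 12341 listed genes, and in 2 of 14 windows of 19S subunits. *Nfe2l1* itself was at 40.1, 36.9, 34.8, 43.8, 42.0 and 44.7 RPKM. Its values in files 4 to 6 were all above those in files 1 to 3, as for 13.1% of all genes. *Nfe2l2* was at 39.8, 32.5, 36.6, 36.6, 29.8 and 28.9 RPKM, and its sets overlapped. The part of either regulator in these levels was not tested. CCAAT on either strand was in 15 of 41 (36.6%), against 40.3%. The core of the interferon-stimulated response element, on either strand, was in 3 of 41 (7.32%), against 3.01%, and the window of *Psmb10* held none of the 3 motifs. A match is a description of letters and not a bound site. The 5 windows with TGACNNNGC are shown to let the motif be read in each gene, 5′ to 3′ on the strand of the gene and with the motif in capitals. They lie at chr14:54618018-54618058 (minus), chr11:70525332-70525356 (plus), chr14:45329581-45329621 (plus), chr11:107479278-107479305 (plus) and chr5:123228143-123228183 (plus).
Psmb5: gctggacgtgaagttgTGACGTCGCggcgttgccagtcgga
Psmb6: ggcggactaaagagagTGACGGAGC
Psmc6: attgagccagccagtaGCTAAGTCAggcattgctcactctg
Psmd12: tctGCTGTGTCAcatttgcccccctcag
Psmd9: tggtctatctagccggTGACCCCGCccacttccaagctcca
In *Psmb5*, *Psmb6* and *Psmd9* the motif is on the strand of the gene and starts 47, 9 and 31 bases before the start site, and in *Psmc6* and *Psmd12* it is on the opposite strand and starts 227 and 247 bases before it. Of these genes, *Psmc6* and *Psmd12* were lower in files 4 to 6 without overlap, and *Psmb5*, *Psmb6* and *Psmd9* overlapped between the sets.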

How the data were processed

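Expression was measured in 6 stranded mRNA libraries read on a MiSeq. Per the methods of the study, the authors aligned reads to mm9 with the Illumina Analysis Pipeline, allowing a single mismatch, and used reads that map uniquely to a gene. The deposited values are RPKM, with 1 list per library and no pooling. The study names Partek Genomics Suite for sequence analysis, and the gene annotation is not given in the sources used here. No listed symbol was at 0 in all 6 libraries. Whether an absent symbol, such as *Psmb8*, had 0 reads or was not in the annotation cannot be told. Antisense and overlapping genes were not checked.

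Groups were taken from the labels. The condition word and number in the file name were compared separately. The proteasome symbols, gene lists and comparisons were chosen with earlier results of these data known. The 11538 genes averaging 0.5 RPKM or more were tested on the scale log2(RPKM + 1), using limma (version 3.58.1, R 4.3.3) with its trend option and 1 fit to the 6 libraries without covariates. Benjamini-Hochberg adjustment ran over all tested genes, at a threshold of 0.05. Fold changes on this scale understate the change of low genes.

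Named genes were the catalytic subunits and their immunoproteasome counterparts, the highest and lowest gene of each group, the 3 smallest p-values of each comparison and, by file number, genes without overlap and a change of at least 0.5. The other non-overlapping genes of the file numbers were named after their values were seen.

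Whole reads were recovered from the steps of the RPKM values for 15590 genes (93.5%), taking a value as whole within 0.02 reads plus 3e-05 per read and at most 0.05 (0% after the values had been scrambled). Of the recovered exon lengths of annotated genes, 22.5% equalled that of an annotated transcript. The search preferred the shortest length that fit, so reads of a gene can be too few. Recovered reads summed to 1006852 to 1191437 per library, fewer than the mapped reads. *Psmb9* was the exception named in the report. Floors of 3 reads and intervals cover counting error only. Transcripts and positions came from GENCODE M1. A gene of the pathway list is not reported here and was left out of its counts. Other scalings, filters, pseudocounts, blocks, voom on the recovered reads and leaving out each library were tried. The code was tested on simulated data.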

Additional observations from a re-analysis of the deposited data

How the results depend on the processing

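The comparisons were recomputed under 17 other settings, and 6 of these leave out a library. Among the recomputed values 203 summary values kept their size and 15 moved, while 272 values of single genes stayed on their side of the threshold, 14 lost it and 0 changed sign. By file number the members called ranged from 0 to 2 with a library left out, and were 2 without a filter, 4 with limma voom on recovered reads and 3 otherwise. All genes called numbered 638 in the main comparison by file number, 285 without a filter, 1057 with voom and 67 to 359 with a library left out, so the background moves as much as the members do. *Psme2b*, *Psmc3* and *Psmd2* passed in 11, 8 and 6 of 13 alternatives, with adjusted p up to 0.0656, 0.0946 and 0.132. For Dzip3-KD against control 24 of all genes passed when the fit held only these 4 libraries, and 25 and 27 without a library of Ring1B-KD, against 0 otherwise or 1 with the replicate block; members called stayed at 0. The median of Dzip3-KD against control was -0.0785 with the file number block, which links these labels only through the Ring1B-KD libraries. That of Dzip3-KD against Ring1B-KD ranged from -0.33 (without Ring1B-KD 2) to -0.10 with a library left out, and that of the word Dzip3KD against control from -0.20 to 0.14 (without control 1). The median of the word Dzip3KD against Ring1BKD ranged from -0.05 (without Dzip3-KD 1) to 0.23, and that of Ring1BKD against control from -0.27 to -0.02. By file number, in alternatives chosen after seeing the data, the 20S genes lower without overlap numbered 1 with scaling to the 75th percentile and 0 to 4 with a library left out, and the 19S genes 10 with that scaling, 11 with quantile normalization and 13 to 15 with a library left out. The immunoproteasome genes minus the constitutive ones were at -3.97 with all 20S subunits as the constitutive set and at -6.46 with a pseudocount of 0.1, since the result rests on values near 0. The cause of the other moves was not tested.

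Same-numbered libraries did not deviate together (correlations across genes of -0.04, -0.24 and 0.04), and nothing says that a number marks a shared culture. With the replicate number as a block, 0 members were called for each comparison of labels, with medians of -0.09 and -0.23 for Ring1B-KD and Dzip3-KD, each against control, and -0.18 between these labels. With the numbers of Dzip3-KD crossed, a pairing added after seeing the data, 0 members and 0 of all genes were called against control.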

Other observations

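Genes that act downstream of the proteasome in antigen presentation showed another pattern than the proteasome genes. Of a list of 15 such genes and interferon genes, 12 could be tested, and 4 passed the limma adjusted p by file number, all higher in files 4 to 6 (against 3.09% of all genes called higher). *Pdia3*, a disulfide isomerase of the endoplasmic reticulum that loads class I molecules, was at 49.3, 44.9, 44.8, 72.8, 80.8 and 80.9 RPKM in files 1 to 6, or 0.74 on the log2 scale (SE 0.11, limma adjusted p 0.0104). *Canx*, a chaperone of glycoprotein folding, was at 67.7, 66.3, 54.6, 100.4, 101 and 117 RPKM, a change of 0.75 (SE 0.13, limma adjusted p 0.0149). *Calr*, a related chaperone, was at 144, 135, 157, 211, 237 and 244 RPKM, a change of 0.67 (SE 0.12, limma adjusted p 0.0169). *H2-K1*, a class I heavy chain, was at 2.42, 2.83, 3.06, 6.25, 5.02 and 5.59 RPKM, a change of 0.81 (SE 0.15, limma adjusted p 0.0182). For each of these genes the sets of files did not overlap. The first 3 are general folding factors of the endoplasmic reticulum as well.

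At an unadjusted p under 0.05, 6 of the 12 were higher and 1 lower by file number, against 11% and 12.2% of all genes. By label, 0 passed in any comparison. For Dzip3-KD against control 5 were higher and 0 lower at an unadjusted p under 0.05 (against 5.24% and 6.99% of all genes), with the smallest p for *Calr* (0.78, SE 0.19), *B2m* (0.72, SE 0.19) and *Pdia3* (0.77, SE 0.23), each with a limma adjusted p of 0.300 or 0.319. *B2m*, the light chain of class I molecules, was at 13.9, 16.6, 14.5, 18.0, 24.6 and 27.0 RPKM and was highest in both Dzip3-KD libraries. Against Ring1B-KD, 1 of 12 in Dzip3-KD (*B2m*, 0.64, SE 0.19, limma adjusted p 0.864) was higher at an unadjusted p under 0.05 (against 1.61% of all genes), and for Ring1B-KD against control 0 were in either direction (against 2.23% higher and 2.88% lower). *Tap1*, the peptide transporter gene that lies next to *Psmb9*, was at 0.450, 0.0988, 0.804, 0.718, 0.726 and 0.284 RPKM, on 4, 1, 8, 7, 7 and 3 reads. It thus had 8 and 7 reads in Ring1B-KD 1 and 2, where *Psmb9* and *Psmb10* had 0, but also 7 in Dzip3-KD 1. *Psmb9* was at 0 in both controls and in Dzip3-KD 1 as well.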
